A study of Mus musculus with 8 samples.

Results

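Mouse chromosome 14 is described here in 2 segments, a distal one from 80 Mb to the chromosome end that is mostly gene-poor and a proximal one from 3 to 80 Mb, through their Hi-C contacts in embryonic stem cells (mESCs) with and without depletion of L1 RNA. The members are the 500-kb bins of chromosome 14 in the mm9 build, chosen by position alone, and a bin was dropped where its coverage fell under 0.1 of the chromosome's median in any sample. Of 251 bins, 240 were kept, out of 5093 kept of 5322 in the whole series. The proximal segment kept 149 of 154 bins and the distal segment 91 of 91.

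The study asked how L1 RNA bears on higher-order chromatin structure. It made in situ Hi-C libraries in a small-scale form (sisHi-C) from mESCs, and 4 of its 8 samples are Hi-C samples. The other 4, of H3K9me3 ChIP-seq, are not analysed here. The study's methods describe the transfections as independent experiments, and the labels give replicate numbers and no cell line for the Hi-C samples.

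The 2 L1 AMO samples came from cells nucleofected with an antisense morpholino oligo against L1 RNA. The 2 SCR AMO samples, the controls, came from cells nucleofected with a scrambled morpholino in the same way. Both groups received 5 nmol of oligo in 100 µl for 2500000 cells, were sorted at 12 h for cells that had taken up the oligo, and were harvested at 36 h. The oligos set the groups apart, so both are shown 5′ to 3′, with no base marked.
L1 AMO: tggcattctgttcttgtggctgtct
SCR AMO: cctcttacctcagttacaatttata

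L1 elements are retrotransposons that are most abundant in AT-rich, gene-poor DNA, whereas SINE elements such as B1 gather near genes. In Hi-C maps, active gene-rich blocks contact each other preferentially and form the A compartment, and inactive gene-poor blocks form the B compartment. Contacts between like blocks are called homotypic and those between unlike blocks heterotypic.

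SCR AMO replicates 1 and 2 held 112381720 and 22252054 contacts, of which 3532236 and 695283 joined bins of chromosome 14. L1 AMO replicates 1 and 2 held 58030519 and 46263849 contacts, of which 2615543 and 2154358 lay within chromosome 14. The SCR AMO samples thus had both the highest and the lowest depth, with the L1 AMO samples in between. Against the valid pairs that the study tabulates, the total of SCR AMO replicate 1 lay above, that of SCR AMO replicate 2 lay below, and both L1 AMO totals lay within 5 percent. A departure of more than 5 percent was thus seen only in the SCR AMO samples, and in opposite directions. What part the making of the maps has in the values below was not tested and cannot be told apart from the AMO.

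Coverage of the whole chromosome differed between the groups, which bears on every raw count below. Chromosome 14 took 4.13% and 4.14% of all contact ends in SCR AMO replicates 1 and 2 and 5.45% and 5.53% in L1 AMO replicates 1 and 2, a ratio of 1.33. The groups were far apart relative to the spread within them. Chromosome 1 had a ratio of 1.37, and the other 18 chromosomes lay between 0.908 and 1.01. Within chromosome 14 the ratio was 1.41 in the distal segment and 1.28 in the proximal segment. It was also higher in B than in A bins, classes that are defined below. These ratios were 1.42 and 1.37 in the distal and 1.33 and 1.25 in the proximal segment. On chromosome 1 they were 1.44 and 1.32, and on the other 17 autosomes 0.996 and 0.912. The part of class in the difference between the segments was not tested. DNA copy number was not measured, so copy number and AMO cannot be told apart. For this reason most values are given from maps balanced by iterative correction, in which every bin has the same total, and relative to the mean of the chromosome at each distance in the same sample (observed/expected).

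The bins next to the coverage limit all lie in the proximal segment. The bin at 3.0 Mb was dropped, with 0.120 and 0.117 of the median coverage in SCR AMO replicates 1 and 2 and 0.112 and 0.0994 in L1 AMO replicates 1 and 2. The bin at 53.5 Mb was kept with 0.138, 0.142, 0.125 and 0.118 of the median in the same order. The bin at 4.5 Mb was kept with 0.155, 0.165, 0.144 and 0.119.

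The distal segment was a nearly unbroken B domain, while the proximal segment alternated between A and B. Classes came from eigenvector 1 of the observed/expected map averaged over the 4 samples, which held 34.3% of the variance against 22.6% for eigenvector 2. Its sign was set so that positive (A) bins send a larger share of their contacts with other chromosomes to the gene-dense chromosomes 11 and 19. Across the 240 bins of the chromosome, which are neighbours and not independent, the correlation of eigenvector 1 with that share was 0.858. B bins made up 82 of 91 distal bins (90.1%) and 66 of 149 proximal bins (44.3%). The median of eigenvector 1 was -1.26 in the distal and 0.261 in the proximal segment. Gene density was not measured in these bins, so the label gene-poor rests here on contact partners, from which the sign of the class was also set.

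Shares of contacts with chromosomes 11 and 19 were higher in A than in B bins, which follows in part from how the sign was set. Proximal A bins sent on average 9.73% of their contacts with other chromosomes to chromosomes 11 and 19, and proximal B bins 8.73%. Distal A bins sent 8.83% and distal B bins 7.57%, the lowest share. Distal A bins thus lay near proximal B bins by this share.

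The limit at 80 Mb fell exactly on a change of sign. In the bin from 79.5 to 80 Mb eigenvector 1, computed in each sample alone, was 0.995 and 1.22 in SCR AMO replicates 1 and 2 and 0.860 and 0.405 in L1 AMO replicates 1 and 2. In the bin from 80 to 80.5 Mb it was -0.311, -0.246, -0.631 and -1.24 in the same order. Neither bin changed its sign.

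Runs of bins of the same sign numbered 26 in the proximal and 9 in the distal segment. The 3 longest distal B runs spanned 80 to 99.5 Mb, 106 to 118.5 Mb and 100 to 105.5 Mb, and the first of these, 19.5 Mb long, was the longest run of the chromosome. Distal A blocks were 4 short islands, at 120.5 to 123 Mb, 118.5 to 119.5 Mb, 99.5 to 100 Mb and 105.5 to 106 Mb. The last 2 are single bins, with a mean eigenvector 1 of 0.852 and 0.219, and the first in position was taken as the third longest. The longest proximal A runs were 59.5 to 69 Mb, 53.5 to 59 Mb and 30.5 to 35.5 Mb. The longest proximal B runs were 35.5 to 45.5 Mb, 13.5 to 20.5 Mb and 4 to 8.5 Mb.

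Eigenvector 1 of single samples lay lower as a whole in the L1 AMO samples, which bears on any count of signs. Its mean over the 240 bins was -0.0754 and 0.0357 in SCR AMO replicates 1 and 2 and -0.305 and -0.623 in L1 AMO replicates 1 and 2. With eigenvector 1 of each sample alone, B bins made up 84.6% and 84.6% of the distal segment in SCR AMO replicates 1 and 2 and 91.2% and 92.3% in L1 AMO replicates 1 and 2. In the proximal segment they made up 38.3% and 35.6% under SCR AMO and 45.6% and 61.7% under L1 AMO. The groups did not overlap in either segment, and in the proximal segment L1 AMO replicate 2 stood well apart from the other 3 samples. With the mean of each sample as zero, chosen after seeing the data, the shares were 84.6% and 85.7% against 86.8% and 86.8% in the distal segment, and overlapped in the proximal segment. A common shift of the eigenvector and a larger B compartment thus cannot be told apart by these shares. The correlation of eigenvector 1 over the bins was 0.990 between the SCR AMO samples, 0.958 between the L1 AMO samples, 0.974 and 0.969 between L1 AMO replicate 1 and SCR AMO replicates 1 and 2, and 0.909 and 0.906 for L1 AMO replicate 2.

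Single bins that changed sign between both SCR AMO and both L1 AMO samples numbered 21 of 240. Of these, 20 went from A to B, where 5.28% of all kept bins of the series did so, and 1 went from B to A, where 0.0393% did. The 14 proximal bins that went from A to B included the block from 28.5 to 30.5 Mb, next to the A run from 30.5 to 35.5 Mb. The 6 distal bins lay at 87, 100, 100.5, 103.5, 105.5 and 106 Mb, of which 3 fell in the B run from 100 to 105.5 Mb. The bin at 9.5 Mb was the one that went from B to A. With the mean of each sample as zero the changes were even, with 10 bins from A to B, against 2.81% of all kept bins, and 10 from B to A, against 0.255%. Of the 10 that went from A to B, 9 lay in the proximal segment, among them the bins at 28.5, 29.5 and 30 Mb, and 1 in the distal segment, at 100.5 Mb. The 10 that went from B to A are among 13 such bins in the whole series. Of these 10, 9 lay in the proximal segment, at 4 to 10.5 Mb, and 1 in the distal segment, at 123 Mb. Those at 4 to 8 Mb were thinly covered, with at most 0.378 of the median. Most changes of sign thus rest on where the zero is set.

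The 2 segments touched each other less in the L1 AMO samples, and each kept a different share of the chromosome's contacts. Contacts between the segments made up 7.45% and 6.76% of the balanced contact frequency of chromosome 14 in SCR AMO replicates 1 and 2 and 6.34% and 6.13% in L1 AMO replicates 1 and 2. Contacts within the distal segment made up 36.3% and 36.4% under SCR AMO and 35.3% and 35.0% under L1 AMO. Contacts within the proximal segment made up 56.2% and 56.9% under SCR AMO and 58.3% and 58.8% under L1 AMO. None of the 3 shares overlapped between the groups, with the proximal share higher and both others lower in L1 AMO. The 3 shares are parts of the same total, so they are not separate results.

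The share between the segments differed by -0.865 percentage points. For 2 samples in each group the two-sided exact permutation test cannot reach 0.05, and its smallest p, 0.333, applies to every comparison of sample values below whose groups do not overlap. The size of this difference rests in part on SCR AMO replicate 1, without which it was -0.521 points.

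Relative to the mean of each distance, contacts between the segments were not fewer in L1 AMO. Beyond 2 Mb, observed/expected between the segments was 0.927 and 0.930 in SCR AMO replicates 1 and 2 and 0.946 and 0.957 in L1 AMO replicates 1 and 2. Within the distal segment it was 1.24 and 1.24 under SCR AMO and 1.22 and 1.22 under L1 AMO. Within the proximal segment it was 1.01 and 1.00 under SCR AMO and 0.993 and 0.978 under L1 AMO. The groups did not overlap: values between the segments were higher and those within each segment lower in L1 AMO, all by less than 0.05. The expected value is the chromosome's own mean at each distance. Values within and between the segments are therefore tied to each other and are not separate results. The direction within the distal segment turned with the balancing: the difference was -0.0233 with balancing over the genome, 0.0716 with raw counts and 0.0265 with balancing of chromosome 14 alone. Within the proximal segment the difference was -0.0209, -0.0678 and -0.0474 in the same order, and -0.0134 without L1 AMO replicate 2.

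Contacts at 2 to 10 Mb were more frequent in both segments of the L1-depleted cells. The mean frequency per pair of distal bins at this distance, per 1000000 of the chromosome's balanced total, was 35.4 and 32.7 in SCR AMO replicates 1 and 2 and 41.1 and 40.4 in L1 AMO replicates 1 and 2, a log2 ratio of 0.26. For proximal bins it was 28.6 and 26.8 under SCR AMO and 32.8 and 32.5 under L1 AMO, a log2 ratio of 0.24. Across the limit at 80 Mb it was 18.9 and 17.5 under SCR AMO and 23.2 and 22.9 under L1 AMO, a log2 ratio of 0.34. In each of these classes the lower L1 AMO value exceeded the higher SCR AMO value. The rise was not particular to chromosome 14. On every autosome and X the share of contacts at 2 to 10 Mb was higher in L1 AMO, by 1.61 to 2.27 percentage points.

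Distal bins contacted each other more than proximal bins did at this distance in every sample. The ratio of distal to proximal frequency was 1.24 and 1.22 in SCR AMO replicates 1 and 2 and 1.25 and 1.24 in L1 AMO replicates 1 and 2. The values of the groups lie next to each other, with the L1 AMO samples just above. The log2 ratio of distal minus that of proximal pairs was 0.02, which became 0.16 with raw counts, 0.12 with balancing of chromosome 14 alone and -0.000786 with a coverage limit of 0.5, and 0.01 without SCR AMO replicate 2 or without L1 AMO replicate 1. The size of this small difference thus depended on the balancing, and its sign turned only with the higher coverage limit.

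At 10 to 40 Mb the order of the groups was the opposite. The distal frequency was 14.8 and 14.1 per 1000000 in SCR AMO replicates 1 and 2 and 13.2 and 13.1 in L1 AMO replicates 1 and 2, a log2 ratio of -0.14, or -0.04 with raw counts and -0.08 with balancing of chromosome 14 alone. The proximal frequency was 11.1 and 10.4 under SCR AMO and 10.2 and 9.95 under L1 AMO, a log2 ratio of -0.09, or -0.05 without SCR AMO replicate 1 and -0.19 with raw counts. Both classes were lower in L1 AMO with no overlap, while contacts between the segments at this distance overlapped between the groups.

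Beyond 40 Mb the frequency of proximal pairs was 6.47 and 5.79 per 1000000 under SCR AMO and 5.04 and 4.52 under L1 AMO, a log2 ratio of -0.36. Between the segments it was 4.48 and 3.99 under SCR AMO and 3.44 and 3.22 under L1 AMO, a log2 ratio of -0.34. Both were lower in L1 AMO, and distal pairs so far apart overlapped between the groups. On every autosome and X the share of contacts beyond 10 Mb was lower in L1 AMO, with differences from -1.07 to -2.46 percentage points.

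The nearest neighbours differed more in the distal segment. For distal bins 0.5 Mb apart the frequency was 940 and 908 per 1000000 in SCR AMO replicates 1 and 2 and 805 and 778 in L1 AMO replicates 1 and 2, a log2 ratio of -0.22. For proximal bins it was 841 and 820 under SCR AMO and 795 and 779 under L1 AMO, a log2 ratio of -0.08. Both were lower in L1 AMO without overlap, and the difference between the segments was not tested.

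Homotypic contacts stood out less from heterotypic ones in the L1-depleted cells, in both segments and between them. The compartment contrast, the mean of A-A and B-B observed/expected divided by that of A-B beyond 2 Mb, was 1.53 and 1.52 within the distal segment in SCR AMO replicates 1 and 2 and 1.35 and 1.29 in L1 AMO replicates 1 and 2. Within the proximal segment it was 1.49 and 1.54 under SCR AMO and 1.39 and 1.36 under L1 AMO. Between the segments it was 1.95 and 1.97 under SCR AMO and 1.86 and 1.79 under L1 AMO.

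In all 3 classes the L1 AMO values lay under those of SCR AMO. The difference was -0.208 within the distal segment, with an SD of 0.00569 in SCR AMO and 0.0488 in L1 AMO (n = 2 each). It was -0.143 within the proximal segment and -0.129 between the segments. With only the 20% of bins at each end of eigenvector 1 in place of all bins, the differences were -0.372, -1.42 and -0.974 in the same order. That contrast is of extreme bins only and on another scale. Its values per group are not given here, so only the direction can be compared. With eigenvector 1 of the L1 AMO samples alone, the proximal difference was -0.0648.

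Within the distal segment, contacts among the A islands differed most. Observed/expected among distal A bins was 1.80 and 1.78 in SCR AMO replicates 1 and 2 and 1.61 and 1.48 in L1 AMO replicates 1 and 2. Among distal B bins it was 1.29 and 1.29 under SCR AMO and 1.25 and 1.25 under L1 AMO. Between distal A and distal B bins it was 1.01 and 1.01 under SCR AMO and 1.06 and 1.06 under L1 AMO. The groups did not overlap: over all distal bins, A-A means were lower and A-B means higher in L1 AMO. Of 9 distal A-B pairs of the long runs described below, 3 were higher, 2 lower and 4 overlapping. For the B-B values the direction rested on the balancing, with a difference of -0.0385 as given, 0.0629 with raw counts and 0.0187 with balancing of chromosome 14 alone.

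In the proximal segment the A blocks showed the same order and the B blocks barely differed. Observed/expected among proximal A bins was 1.18 and 1.18 under SCR AMO and 1.08 and 1.04 under L1 AMO. Among proximal B bins it was 1.26 and 1.27 under SCR AMO and 1.25 and 1.25 under L1 AMO. Between proximal A and B bins it was 0.815 and 0.796 under SCR AMO and 0.842 and 0.839 under L1 AMO. The A-A values were well apart between the groups, and the B-B values differed by less than the SCR AMO samples did from each other. With raw counts the A-A values kept their order, while the groups overlapped for A-B, with a difference of 0.00678 in place of 0.0352, and for B-B, where the difference of -0.0133 turned its sign.

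Across the limit at 80 Mb, the mean observed/expected of proximal A with distal B bins was higher in the L1 AMO maps, though not for every distal B run, as given below. Proximal A with distal B bins had an observed/expected of 0.692 and 0.693 in SCR AMO replicates 1 and 2 and 0.717 and 0.731 in L1 AMO replicates 1 and 2. Proximal B with distal A bins had 1.14 and 1.15 under SCR AMO and 1.13 and 1.12 under L1 AMO. The first of these heterotypic classes was higher in L1 AMO, also with raw counts, and the second slightly lower, though with raw counts its groups overlapped. A bins of the 2 segments had 1.75 and 1.79 with each other under SCR AMO and 1.68 and 1.60 under L1 AMO, while B bins had 1.09 and 1.09 under SCR AMO and 1.11 and 1.13 under L1 AMO. Between the segments, then, A-A values were lower and B-B values higher in L1 AMO, and both kept that order with raw counts and with balancing of chromosome 14 alone.

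Among the long runs, homotypic observed/expected was mostly lower in L1 AMO for A-A pairs and evenly split for B-B pairs. The 3 longest runs of each sign in each segment form 30 homotypic pairs of different runs, of which 18 were lower, 6 higher and 6 overlapping between the groups. The excess of lower pairs came from the A-A pairs, since the 15 B-B pairs split into 6 lower, 6 higher and 3 overlapping. For the 6 longest runs of each sign on every chromosome, 60.2% of homotypic pairs were lower and 18.0% higher, so the homotypic pairs of chromosome 14 lay near the background. A-A and B-B pairs were not counted apart over all chromosomes. Within the distal segment 6 of 6 homotypic pairs were lower, against 4 of 6 with raw counts and 5 of 6 with balancing of chromosome 14 alone. The 36 heterotypic pairs split into 16 higher, 11 lower and 9 overlapping, where 64.0% were higher and 12.8% lower over all chromosomes. A smaller share of them was thus higher and a larger share lower than over all chromosomes, where the runs were not chosen by segment. This difference was not tested.

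The longest distal domain had less observed/expected contact with the next ones in L1 AMO. The B run at 80 to 99.5 Mb with that at 106 to 118.5 Mb had 1.41 and 1.41 in SCR AMO replicates 1 and 2 and 1.25 and 1.26 in L1 AMO replicates 1 and 2, a log2 ratio of -0.16. With the B run at 100 to 105.5 Mb it had 1.18 and 1.17 under SCR AMO and 1.08 and 1.06 under L1 AMO, a log2 ratio of -0.14. Both pairs were lower in L1 AMO without overlap, but their size depended on the balancing: with raw counts the log2 ratios were -0.03 and -0.05, and with balancing of chromosome 14 alone -0.10 and -0.07. The contact frequency of the first pair was lower by a log2 of -0.26, while that of the second overlapped between the groups (log2 -0.03).

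Distal A islands had a lower observed/expected with each other in the L1 AMO maps. The island at 99.5 to 100 Mb, a single bin, had an observed/expected of 2.30 and 2.69 with the island at 118.5 to 119.5 Mb under SCR AMO and 2.24 and 1.70 under L1 AMO, with L1 AMO replicate 1 close to SCR AMO replicate 1. The islands at 118.5 to 119.5 Mb and 120.5 to 123 Mb had 1.45 and 1.44 with each other under SCR AMO and 1.25 and 1.29 under L1 AMO. The groups did not overlap in either pair. The frequency of the second pair was not lower, with 83.9 and 78.2 per 1000000 under SCR AMO and 84.5 and 85.3 under L1 AMO.

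The 3 long A runs of the proximal segment had a higher observed/expected with the distal B domain at 80 to 99.5 Mb in L1 AMO. For the A run at 53.5 to 59 Mb it was 0.439 and 0.444 in SCR AMO replicates 1 and 2 and 0.536 and 0.607 in L1 AMO replicates 1 and 2, a log2 ratio of 0.37. For the A run at 59.5 to 69 Mb it was 0.501 and 0.492 under SCR AMO and 0.615 and 0.640 under L1 AMO, a log2 ratio of 0.34. For the A run at 30.5 to 35.5 Mb it was 0.576 and 0.566 under SCR AMO and 0.652 and 0.679 under L1 AMO, a log2 ratio of 0.22. All 3 A runs stayed below 1 with this domain in every sample, with both L1 AMO samples higher than both SCR AMO samples. Their frequency with this domain was higher by a log2 of 0.24 and 0.22 for the first 2 runs and overlapped between the groups for the third. With the next distal B run, at 100 to 105.5 Mb, observed/expected of the same 3 A runs was lower in L1 AMO without overlap, with log2 ratios of -0.21, -0.16 and -0.11.

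Of the 15 A-A pairs of these runs, 12 had a lower observed/expected in L1 AMO and 3 overlapped between the groups. Over all chromosomes only the share of homotypic pairs together was counted, 60.2% lower and 18.0% higher. Whether the A-A count is particular to chromosome 14 was thus not tested. The A run at 59.5 to 69 Mb with the island at 99.5 to 100 Mb had 1.30 and 1.25 under SCR AMO and 0.996 and 0.928 under L1 AMO, a log2 ratio of -0.41. Both SCR AMO samples lay above the mean of the distance and both L1 AMO samples below it. Among proximal A runs, 30.5 to 35.5 Mb with 59.5 to 69 Mb had 1.29 and 1.31 under SCR AMO and 1.20 and 1.11 under L1 AMO, a log2 ratio of -0.17. Both pairs were lower in L1 AMO without overlap.

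The long proximal B runs differed from each other. The B run at 35.5 to 45.5 Mb had 0.475 and 0.487 with the A run at 53.5 to 59 Mb under SCR AMO and 0.586 and 0.608 under L1 AMO, a log2 ratio of 0.31. With the A run at 59.5 to 69 Mb it had 0.560 and 0.562 under SCR AMO and 0.675 and 0.716 under L1 AMO, also a log2 ratio of 0.31. This B run thus had a higher observed/expected with both A runs in the L1-depleted cells, as the distal domain at 80 to 99.5 Mb had.

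The B run at 13.5 to 20.5 Mb went the other way with several partners. Its observed/expected with the A run at 59.5 to 69 Mb was 0.636 and 0.580 in SCR AMO replicates 1 and 2 and 0.466 and 0.415 in L1 AMO replicates 1 and 2, a log2 ratio of -0.47. With the B run at 35.5 to 45.5 Mb it was 1.18 and 1.17 under SCR AMO and 1.02 and 0.968 under L1 AMO, a log2 ratio of -0.24. With the distal B domain at 80 to 99.5 Mb it was 0.878 and 0.895 under SCR AMO and 0.783 and 0.748 under L1 AMO, a log2 ratio of -0.21. This run was thus lower in L1 AMO with these 3 partners. With the B run at 4 to 8.5 Mb it was higher, at 2.11 and 2.12 under SCR AMO and 2.19 and 2.22 under L1 AMO. That did not hold with raw counts, where 0 of 6 homotypic pairs of proximal runs were higher without overlap. With the B run at 106 to 118.5 Mb the groups overlapped.

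Seen from the whole distal segment, the proximal tiles of 5 Mb ranged from strong partners to avoided ones. The 3 tiles with the highest observed/expected were 3 to 5 Mb, with 1.43 and 1.41 in SCR AMO replicates 1 and 2 and 1.37 and 1.39 in L1 AMO replicates 1 and 2, then 40 to 45 Mb, with 1.35, 1.34, 1.37 and 1.43 in the same order, and 35 to 40 Mb, with 1.22, 1.23, 1.28 and 1.26. The tile at 3 to 5 Mb holds 2 kept bins of low coverage, and the other 2 tiles make up most of the long proximal B run. The first was slightly lower and the other 2 slightly higher in L1 AMO.

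The lowest observed/expected with the distal segment belonged to A tiles. The tile at 60 to 65 Mb had 0.670, 0.678, 0.693 and 0.744 in SCR AMO replicates 1 and 2 and L1 AMO replicates 1 and 2. The tile at 25 to 30 Mb had 0.670, 0.686, 0.702 and 0.702, and that at 55 to 60 Mb had 0.689, 0.684, 0.727 and 0.763. Observed/expected of all 3 was higher in both L1 AMO samples. Their frequency with the distal segment was not: it was lower for 25 to 30 Mb, by a log2 of -0.39, and overlapped between the groups for the other 2. The lowest log2 ratio, singled out after its values were seen, was at 15 to 20 Mb, where observed/expected was 0.890 and 0.896 under SCR AMO and 0.785 and 0.797 under L1 AMO, a log2 ratio of -0.18. The tile next to the limit, at 75 to 80 Mb, had 1.03 and 1.05 under SCR AMO and 0.983 and 0.967 under L1 AMO.

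Contact counts of pairs of 5-Mb tiles allowed a test of single pairs. Chromosome 14 has 351 such pairs, and 349 passed a mean of 10 contacts, 136 within the proximal segment, 55 within the distal segment and 158 between them. The edgeR quasi-likelihood test with TMM normalization was fitted over all 7903 tile pairs of the autosomes and X. It called 244 of the 349 pairs higher in L1 AMO, against 26.7% of all pairs tested, and 4 lower, against 30.1%. By segment, 112 proximal, 55 distal and 77 between-segment pairs were higher, and 2 proximal and 2 between-segment pairs were lower.

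This excess went with the larger share of contacts that chromosome 14 took in L1 AMO. Scaled to the total of the own chromosome, an alternative chosen after seeing the data, 37 pairs were higher, against 8.67% of all pairs, and 146 were lower, against 43.0%. That fit also did without TMM, and the median log2 ratio of all pairs was -0.19 in place of -0.01, as it was with library size without TMM. With the balancing factors of both tiles' bins as offset, also chosen after seeing the data, 81 pairs were higher, against 24.1%, and 118 were lower, against 26.3%. The higher pairs made up 98.4% of the calls with TMM, 20.2% with the own total and 40.7% with the balancing factors. Of the 244 pairs called higher with TMM, 81 were also called higher and 41 were called lower with the balancing factors.

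With the balancing factors the calls followed distance, in both directions. Of 75 pairs up to 10 Mb apart, 54 were higher, against 80.2% over all chromosomes, and 0 lower, against 0.193%. Of 123 pairs above 10 and up to 40 Mb apart, 27 were higher, against 23.3%, and 29 lower, against 10.6%. Of 151 pairs above 40 Mb apart, 0 were higher, against 1.72%, and 89 lower, against 47.6%. The same order with distance was thus seen over all chromosomes, and the differences from these shares were not tested. By segment, 48 proximal pairs were higher and 35 lower, 20 distal pairs were higher and 8 lower, and 13 pairs between the segments were higher and 75 lower.

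The pairs with the largest rise included blocks of like and of unlike class. Contacts per 1000000 of tile pairs are given here and below as scaled with the TMM factors. The B tile at 35 to 40 Mb with the A tile at 30 to 35 Mb had 125 and 123 contacts per 1000000 in SCR AMO replicates 1 and 2 and 238 and 234 in L1 AMO replicates 1 and 2. Both L1 AMO samples were higher, by a log2 of 0.93 with TMM (edgeR adjusted p = 2.89e-19) and of 0.50 with the balancing factors. In the distal segment the tiles at 105 to 110 Mb and 110 to 115 Mb had 118 and 119 contacts per 1000000 with each other under SCR AMO and 238 and 254 under L1 AMO. Both L1 AMO samples were again higher, by a log2 of 1.05 (edgeR adjusted p = 2.26e-20), or 0.40 with the balancing factors. Between the segments, the A tile at 60 to 65 Mb with the B tile at 90 to 95 Mb had 18.7 and 16.3 contacts per 1000000 under SCR AMO and 31.6 and 34.1 under L1 AMO. This pair was higher in both L1 AMO samples by a log2 of 0.87 (edgeR adjusted p = 5.03e-12), or 0.40 with the balancing factors.

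The other pairs with the largest rise lay close to these. In the proximal segment they joined 25 to 30 Mb with 35 to 40 Mb (log2 0.93) and 30 to 35 Mb with 40 to 45 Mb (log2 0.88). Across the limit they joined 55 to 60 Mb with 80 to 85 Mb (log2 0.83) and 75 to 80 Mb with 80 to 85 Mb (log2 0.82). In the distal segment the last tile, which is a single bin from 125 to 125.5 Mb, was higher with 100 to 105 Mb (log2 1.10) and with 105 to 110 Mb (log2 1.01). The first of these rests on 24 contacts in SCR AMO replicate 2, and the second was not called with the own total or the balancing factors.

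The few lower pairs all held the tile at 15 to 20 Mb among those whose groups did not overlap. With 75 to 80 Mb it had 17.2 and 15.8 contacts per 1000000 under SCR AMO and 13.1 and 11.4 under L1 AMO. It was lower in both L1 AMO samples, by a log2 of -0.44 with TMM (edgeR adjusted p = 3.53e-04) and of -0.88 with the balancing factors, though without SCR AMO replicate 1 the edgeR adjusted p of this log2 of -0.35 was 0.0542. With 120 to 125 Mb its log2 ratio was -0.32 and with 70 to 75 Mb -0.25. Both of these calls were lost with DESeq2 or without SCR AMO replicate 1, with log2 ratios of -0.29 and -0.22 without that sample, and the second also without L1 AMO replicate 2, with -0.10. In all, the first was not called in 4 and the second in 6 of 14 settings. With samples of unlike replicate number paired, 1 proximal pair and 0 pairs between the segments were called lower.

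Relative to the genome-wide mean at each distance, an offset that keeps the coverage of the chromosome, the edgeR test called 310 of the 349 pairs higher in L1 AMO, against 24.7% of all pairs, and 2 lower, against 30.6%. By segment, 119 proximal, 55 distal and 136 between-segment pairs were higher and 2 proximal pairs lower. Relative to the mean of the own chromosome, an alternative chosen after seeing the data, 75 were higher, against 22.3%, and 68 lower, against 17.5%. Relative to the balanced map of the own chromosome, chosen in the same way, 91 were higher, against 23.7%, and 93 lower, against 22.9%. Higher pairs made up 99.4%, 52.4% and 49.5% of the calls in that order, and of the 310 pairs called higher in the first, 91 were also called higher and 71 were called lower in the last. Read against the own chromosome, the pairs of chromosome 14 were therefore called in either direction about as often as those of all chromosomes.

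The pairs named by the genome-wide offset were partly the same. In the proximal segment the B tile at 35 to 40 Mb with the A tile at 55 to 60 Mb had an observed/expected of 0.493 and 0.469 under SCR AMO and 0.837 and 0.859 under L1 AMO, both higher, with a log2 of 0.80 (edgeR adjusted p = 4.60e-25). The tiles at 10 to 15 Mb and 25 to 30 Mb had a log2 of 0.77, those up to 5 Mb and at 45 to 50 Mb 0.75, and those at 60 to 65 Mb and 90 to 95 Mb, across the limit, 0.77. The last tile had 1.01 with 100 to 105 Mb, 0.99 with 105 to 110 Mb and 0.85 with 110 to 115 Mb, of which the last was not called without SCR AMO replicate 1 (0.42). With 30 to 35 Mb and 25 to 30 Mb it had 0.94 and 0.78, on 6 and 4 contacts in SCR AMO replicate 2, and neither call held without SCR AMO replicate 1 (0.77 and 1.35) or without L1 AMO replicate 1 (0.83 and 0.85). The second also did not hold without SCR AMO replicate 2 (0.69) or L1 AMO replicate 2 (0.72). The 2 lower pairs joined 15 to 20 Mb with 75 to 80 Mb, with a log2 of -0.28, and with 60 to 65 Mb, with -0.21. Neither was called without SCR AMO replicate 1 (-0.23 and -0.12), nor the second without L1 AMO replicate 2 (-0.13).

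Which pairs were called in the balanced comparison differed by class. Over all chromosomes, 20.7% of A-A pairs were higher and 38.0% lower, 16.6% and 23.7% of B-B pairs, and 29.8% and 15.2% of A-B pairs. Without balancing the shares were 5.76% and 41.0%, 23.7% and 7.37%, and 29.1% and 13.2% in the same order. Of 45 distal B-B pairs, 21 were lower and 5 higher, and of 9 distal A-B pairs, 6 were higher and 2 lower. Without balancing the distal B-B pairs split the other way, into 13 higher and 7 lower, so their direction rests on the balancing. Of 62 B-B pairs between the segments, 11 were higher and 5 lower, and without balancing 9 were higher and 4 lower. Of 28 proximal B-B pairs, 7 were higher and 8 lower, and without balancing 4 were higher and 6 lower. Of 87 A-B pairs between the segments, 28 were higher and 11 lower, and without balancing 25 were higher and 7 lower. Of 63 proximal A-B pairs, 20 were higher and 21 lower, and without balancing 15 were higher and 19 lower. Of 45 proximal A-A pairs, 23 were lower and 13 higher, and without balancing 25 were lower and 1 higher.

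Called pairs were also counted for single tiles. Over all chromosomes, 22.9% of pairs were lower and 23.7% higher in the balanced comparison. In the balanced comparison the tile at 15 to 20 Mb was lower in 16 and higher in 2 of its 26 pairs, that at 75 to 80 Mb was lower in 15 and higher in 3, and that at 100 to 105 Mb was lower in 14 and higher in 2. The tile at 80 to 85 Mb, just inside the distal segment, was higher in 11 and lower in 4, and that at 95 to 100 Mb was higher in 10 and lower in 5. These tiles were singled out after their counts were seen, and their differences from the shares over all chromosomes were not tested.

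Among proximal pairs, the tiles at 15 to 20 Mb and 75 to 80 Mb had a balanced observed/expected of 0.969 and 0.911 in SCR AMO replicates 1 and 2 and 0.639 and 0.595 in L1 AMO replicates 1 and 2. Both L1 AMO samples were lower, with a log2 of -0.63 (edgeR adjusted p = 1.92e-12, at most 1.08e-05 with the same offset and a sample left out, a replicate block, DESeq2 or a mean of 50 contacts, which the limits below also cover). The tile at 15 to 20 Mb with the A tile at 60 to 65 Mb had 0.545 and 0.491 under SCR AMO and 0.366 and 0.320 under L1 AMO, with a log2 of -0.63 as well (edgeR adjusted p = 4.39e-11, at most 3.41e-04). The B tile at 35 to 40 Mb with the A tile at 55 to 60 Mb had 0.493 and 0.470 under SCR AMO and 0.647 and 0.666 under L1 AMO, both higher, with a log2 of 0.43 (edgeR adjusted p = 1.97e-13, at most 7.95e-08).

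Between the segments, the A tile at 55 to 60 Mb with the first distal tile, at 80 to 85 Mb, had 0.432 and 0.469 in SCR AMO replicates 1 and 2 and 0.584 and 0.607 in L1 AMO replicates 1 and 2. Both L1 AMO samples were higher, with a log2 of 0.44 (edgeR adjusted p = 3.44e-12, at most 5.24e-04). The A tile at 75 to 80 Mb with 100 to 105 Mb had 1.21 and 1.24 under SCR AMO and 0.964 and 0.953 under L1 AMO, both lower, with a log2 of -0.34 (edgeR adjusted p = 5.60e-14, at most 5.57e-09). The tile at 15 to 20 Mb with 85 to 90 Mb had 0.909 and 0.940 under SCR AMO and 0.753 and 0.712 under L1 AMO, both lower, with a log2 of -0.32 (edgeR adjusted p = 1.95e-04, at most 0.0297). Relative to the genome-wide distance these 2 lower pairs had log2 ratios of 0.03 and 0.02 and were not called.

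Within the distal segment, the B tiles at 85 to 90 Mb and 105 to 110 Mb had 1.43 and 1.43 with each other under SCR AMO and 1.15 and 1.18 under L1 AMO, both lower, with a log2 of -0.30 (edgeR adjusted p = 8.01e-12, at most 1.05e-05). The B tiles at 90 to 95 Mb and 110 to 115 Mb had 1.33 and 1.49 under SCR AMO and 1.15 and 1.14 under L1 AMO, both lower, with a log2 of -0.25 (edgeR adjusted p = 1.60e-08, at most 9.82e-05). The B tile at 90 to 95 Mb with 120 to 125 Mb, which holds the longest A island, had 1.09 and 1.07 under SCR AMO and 1.21 and 1.23 under L1 AMO, both higher, with a log2 of 0.16 (edgeR adjusted p = 1.81e-05, at most 0.0128). In these balanced maps the 2 B-B pairs were thus lower and the pair with the tile of the A island higher. Relative to the own chromosome without balancing, the 2 lower pairs had log2 ratios of -0.19 and -0.15 (edgeR adjusted p = 3.72e-04 and 0.00596). With TMM they were called higher, by 0.26 and 0.29, and relative to the genome-wide distance by 0.23 and 0.27.

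The other pairs named in the balanced comparison were higher between 55 to 60 Mb and 90 to 95 Mb (log2 0.42) and between 60 to 65 Mb and 90 to 95 Mb (0.38), and lower between 15 to 20 Mb and 70 to 75 Mb (-0.52) and between 90 to 95 Mb and 105 to 110 Mb (-0.23). Each of these calls held with every sample left out in turn, but the last pair was called higher with TMM (0.41) and with the genome-wide distance (0.37), and was not called relative to the own chromosome without balancing (-0.08). So did that of the last tile with 100 to 105 Mb (0.43, or 1.19 without SCR AMO replicate 1), but its call with 105 to 110 Mb (0.33) was lost without SCR AMO replicate 1 (0.25) or L1 AMO replicate 2 (0.30). Calls of the thinly covered tile up to 5 Mb with 45 to 50 Mb (0.45) and 75 to 80 Mb (0.43) were lost without SCR AMO replicate 1 (0.49 and 0.57) or L1 AMO replicate 1 (0.36 and 0.35). That of 10 to 15 Mb with 110 to 115 Mb (-0.28) was lost in 3 of 7 settings, among them those without the same samples (-0.16 and -0.15).

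Contacts of chromosome 14 with other chromosomes made up a smaller share in L1 AMO, as they did over the genome. Of all contacts, 22.3% and 22.8% joined different chromosomes in SCR AMO replicates 1 and 2 and 15.8% and 14.2% in L1 AMO replicates 1 and 2. For distal bins they made up 22.2% and 24.0% of all contacts in SCR AMO replicates 1 and 2 and 18.0% and 16.7% in L1 AMO replicates 1 and 2, a difference of -5.74 percentage points. For proximal bins they made up 30.1% and 30.8% under SCR AMO and 21.3% and 19.3% under L1 AMO, a difference of -10.1 points. In every sample the distal segment had the smaller share, and in both segments the groups did not overlap. On the 17 autosomes other than 1 and 14 the difference was -10.1 points for A bins and -6.78 points for B bins. Whether the 2 segments differed in this change was not tested.

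Among contacts between chromosomes alone, in the balanced maps, the order was the reverse. Here the mean frequency of contact with other chromosomes was divided by the sample's mean frequency between all chromosomes. This scale takes out the lower share of such contacts over the genome, so it does not show a gain in that share. For distal bins the value was 0.812 and 0.841 under SCR AMO and 1.02 and 1.06 under L1 AMO. For proximal bins it was 1.12 and 1.10 under SCR AMO and 1.22 and 1.21 under L1 AMO. Both segments were thus higher in L1 AMO, in part through chromosome 1, the other chromosome with raised coverage. With chromosome 1, distal B bins went from a mean of 0.762 under SCR AMO to 1.88 under L1 AMO, and distal A bins from 0.947 to 2.28. Proximal A bins went from 0.971 to 1.32 with chromosome 1 and proximal B bins from 0.918 to 1.31, which were smaller steps. Without that partner, chosen to be left out after seeing the data, distal bins had 0.816 and 0.845 under SCR AMO and 0.945 and 0.980 under L1 AMO, still without overlap but below 1. Proximal bins then had 1.14 and 1.12 under SCR AMO and 1.21 and 1.20 under L1 AMO. The part that the higher coverage of chromosome 14 has in these values was not tested.

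Among the 20 chromosomes compared, chromosome 14 was not at either end. Its compartment contrast was 1.59 and 1.61 in SCR AMO replicates 1 and 2 and 1.48 and 1.45 in L1 AMO replicates 1 and 2, and contrast was lower in L1 AMO on all 20. Chromosome 14 ranked 17 of 20 by the size of that loss, 7 by the gain in the share of contacts at 2 to 10 Mb and 9 by the loss in the share beyond 10 Mb. By its share of B bins it ranked 3.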

How the data were processed

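The deposited Hi-C files hold the count of contacts per pair of 500-kb bins (mm9), which the authors made with HiC-Pro (2.7.1b in the submitters' notes, which also name CASAVA). The 2 matrices of each L1 AMO sample were added. Kept bins of the autosomes and X were balanced by iterative correction (tolerance 1e-04) in Python 3.11.15 with numpy 2.4.6 and pandas 2.3.3. Measures were checked on simulated data. Groups of 2 samples followed the labels and were compared with exact permutation tests (two-sided). Tile pairs were tested in R 4.3.3 with edgeR 4.0.16 (glmQLFTest, TMM, or a distance offset) and Benjamini-Hochberg adjustment over all 7903 pairs, with calls at 0.05. The tile pairs named are, per class and direction, the 3 with the largest change among calls whose groups did not overlap, and the runs are the 3 longest of each sign per segment. The members and lists were chosen with earlier results of these data known.

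Alternatives were raw counts, balancing of chromosome 14 alone, either L1 AMO matrix, each sample left out, the replicate number as a block, a coverage limit of 0.5, limits at 75 and 85 Mb, other eigenvectors, end bins, DESeq2 1.42.0, no TMM, other count filters and 10-Mb tiles. Offsets from the own chromosome and from balancing, the crossed pairing, centred eigenvectors and partners without chromosome 1 were added after seeing the data. The H3K9me3 ChIP-seq samples, which hold no contacts, are not used here.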

Additional observations from a re-analysis of the deposited data

How the results depend on the processing

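For 14 segment measures, 171 of 174 settings kept the direction. Observed/expected within the distal segment reversed with raw counts (0.0716) and with balancing of chromosome 14 alone (0.0265), and the difference between the segments in the 2 to 10 Mb change reversed with a coverage limit of 0.5 (-0.000786). The cause was not tested. Leaving out each sample in turn kept every direction, with the share between the segments at -1.21 to -0.521 points, the contrast at -0.242 to -0.173 (distal), -0.168 to -0.119 (proximal) and -0.164 to -0.0930 (between), and 2 to 10 Mb log2 ratios at 0.20 to 0.32 (distal) and 0.19 to 0.29 (proximal).

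Calls of higher tile pairs with TMM (244) became 37 with the own total and 81 with the balancing factors. Lower ones (4) became 146 and 118, 15 without TMM, which moved the median log2 of all pairs to -0.19, 2 with a mean of 50 contacts or the second matrix, 1 with DESeq2 and 0 with 10-Mb tiles. Relative to distance, calls (312, of which 310 higher and 2 lower) became 143, 75 and 68 with the own chromosome and 184, 91 and 93 with its balanced map. Lower ones became 1 with DESeq2 or the first matrix and 0 with 10-Mb tiles. With 10-Mb tiles only 91 pairs were tested. What moved these counts otherwise was not tested.

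Leaving out 1 sample, in a fit that assumes a lone sample to vary like the other group, gave 214 to 264 higher and 1 to 12 lower with TMM, and 249 to 305 higher and 0 to 3 lower relative to distance. The highest count of lower pairs came without L1 AMO replicate 1. With replicate numbers as a block, calls were 266 higher and 6 lower with TMM and 313 and 2 relative to distance. Deviations of same-numbered samples correlated at 0.0966 and -0.127 over the pairs of chromosome 14, and at 0.262 and 0.0798 over all 7903. The crossed pairing, added after seeing the data, gave 230 and 1, and 300 and 2.

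Named tile pairs kept their direction in 429 of 429 settings of their own fit and their call in 387. Across fits they did not: 3 distal pairs lower in the balanced fit were called higher with TMM. For 15 of the run pairs the direction was kept in 120 of 120 settings, of which 12 moved the size. More run pairs than these are given above, and their settings were not counted. Library size without TMM was not run for the distance fit, whose offset sets the scale. Depth limits pairs with the last tile, with as few as 4 contacts in SCR AMO replicate 2.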

Other observations

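The order of genes along chromosome 14 was read from the RefSeq table of a later build, and genes were not placed in mm9 bins. Of 850 protein-coding genes on the chromosome, 71 follow Pcdh17, a protocadherin that acts in adhesion between nerve cells. Those that follow include the protocadherins Pcdh20 and Pcdh9, the transcription factors Dach1, Klf5, Sox21, Zic5 and Zic2, the endothelin receptor Ednrb, the synaptic adhesion proteins Slitrk1, Slitrk6 and Slitrk5, and the glypicans Gpc5 and Gpc6. No expression was measured for them in the files used here.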
